A study of Mus musculus with 19 samples.

Results

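The genes described here are the deubiquitinases, the proteases that take ubiquitin off other proteins, in GFP-positive cells sorted from dorsal root ganglia (DRGs), in which markers of sensory neurons and of glia were both present. Members were chosen by name alone among the protein-coding genes of the expression table, as the ubiquitin-specific proteases whose names begin with Usp and a digit (Usp18 left out), the Otub and Otud genes, Uchl1, Uchl3 and Uchl5, the Josd genes, and Cyld, Bap1, Stambp, Brcc3 and Atxn3. This gave 58 of 12629 genes. By their catalytic fold, 41 carry the USP name or, in the case of Cyld, a domain of the USP type, 8 are OTU proteases, 4 are ubiquitin C-terminal hydrolases (UCH), 3 are Josephins and 2 are zinc-dependent JAMM proteases. A name is no proof of activity: Usp6nl encodes a GTPase-activating protein for Rab GTPases and is no protease, and Usp39, Usp53 and Usp54 have been listed as catalytically inactive.

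Adult 2-month-old male Lewis rats, according to the methods of the study, received AAV5 vectors in the left C5 to C8 DRGs and were examined 8 weeks later. Controls received AAV5-CMV-fGFP, and the others AAV5-CAG-α9-V5 together with AAV5-CMV-kindlin1-GFP, so that every group carried a GFP-expressing virus. The dorsal roots were crushed (crush) or left intact (naive), which gave 4 GFP-crush, 5 GFP-naive, 4 α9k1-crush and 6 α9k1-naive libraries of GFP-positive cells sorted by FACS. The CMV and CAG promoters are not specific to neurons, and because sorting was on GFP, which came with kindlin-1, a sorted α9k1 cell need not have carried α9. The sample labels differ from the methods in naming C57BL/6 mice of wild-type or a9k1 overexpression genotype, papain in place of trypsin and collagenase, and another RNA kit. Nothing in the labels says that each library came from its own animal, and the p-values then measure the spread between these libraries.

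Ubiquitin is attached to proteins through a cascade of E1, E2 and E3 enzymes, and deubiquitinases reverse it. They recycle ubiquitin at the proteasome, cut free chains into monomers, rescue receptors from lysosomal sorting at endosomes, damp NF-κB signalling, edit ubiquitin on histones and hold back the removal of damaged mitochondria. Neurons are rich in these enzymes: UCHL1 is among the most abundant proteins of neurons and serves as a marker of their cell bodies and axons. Several members, such as Atxn3, Bap1 and Cyld, are best known from inherited disease.

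Depth was 36.4 to 87.6 M read pairs a library. Between 47.5% and 54.1% of reads aligned to the mouse genome, and 3.87% to 4.05% of aligned bases differed from it. Values are the log2 values deposited by the authors, normalized for gene length and depth. Counts behind single values are unknown. Kindlin-1 (Fermt1) was at 0.42 to 0.80 in GFP libraries and at 5.18 to 7.73 in α9k1 libraries, and α9 (Itga9) at 0.90 to 2.40 and 2.38 to 7.51, so the α9k1 libraries carried what their labels say, although for α9 the lowest α9k1-naive library lay within the GFP range. All 16 neuron markers were measured, with sums on the linear scale of 9130 to 11800 (GFP-naive), 7330 to 9390 (α9k1-naive), 12900 to 18400 (GFP-crush) and 14200 to 20500 (α9k1-crush). The 12 markers of satellite glia and Schwann cells were all present too and summed to more than the neuron markers in every group, at 57900 to 74900, 82800 to 117000, 36600 to 46000 and 23800 to 37600 in the same order. Most of this sum was Apoe, which macrophages express as well. Without it the other 11 summed to 12100 to 15000, 6260 to 8030, 12600 to 18300 and 7250 to 12900, above the neuron markers in GFP-naive, overlapping with them in α9k1-naive and GFP-crush and below them in α9k1-crush. The 10 macrophage markers measured of 12 summed to 484 to 726, 1500 to 2190, 2230 to 3540 and 1740 to 2880, and the 7 markers of endothelium and fibroblasts measured of 10 to 751 to 938, 114 to 325, 340 to 452 and 250 to 355. Of 5 markers of T and B cells 1 was measured, at 120 to 596, 1.81 to 89.0, 20.3 to 31.6 and 7.22 to 12.5. All 11 immediate early and dissociation genes were measured, and summed to 4160 to 5130, 10500 to 14400, 1730 to 2330 and 4060 to 6290. The ranges of several of these sums do not overlap between groups compared below (those of macrophage markers, for example, between GFP-naive and each other group), and their part in the results on deubiquitinases was not tested.

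A difference between groups is given as a log2 fold change (log2FC) from limma, fitted to all genes and all 19 libraries, at equal values of the first 3 principal components of 48 sequencing metrics (the metric components). The threshold for a call was 0.1 for the p-value after Benjamini-Hochberg adjustment over the whole table, and each adjusted p below is from this fit unless the fit without the components is named. The components differ between groups, with 74.5% of the variance of the third between groups. They inflate the variance of the α9k1-crush versus GFP-crush difference from 0.5 to 3.11 times the variance within groups, and that of α9k1-crush versus α9k1-naive from 0.417 to 2.12 and of the interaction from 0.867 to 2.78, against 0.450 to 0.662 for GFP-crush versus GFP-naive. In the first 3 of these the groups and the sequencing metrics therefore cannot be told apart well, and values are given with and without the components. The kit does not mark strand, as 49.9% to 50% of reads lay on the annotated strand, so reads of overlapping genes cannot be told apart. Exons of 17 of 58 members overlap another gene. For Usp14 this concerns 26.0% of exon bases, shared with Thoc1, for Uchl1 18.1%, shared with its antisense gene, and for Usp34 11.6%, shared with Ahsa2. Uchl3 has a near-identical copy, Uchl4, and its values are uncertain.

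Promoters are shown for 4 members that changed after crush, 2 that rose (Uchl1 and Cyld) and 2 that fell (Usp34 and Usp47), chosen after their values were seen and because the start in RefSeq (GRCm38.p6) lay within 30 bases of the start in the authors' gene table. These are mouse sequences, and if the cells came from rats, as the methods of the study state, they are not the promoters of those cells. Each run is the 250 bases before the start, 5′ to 3′ on the plus strand, with capitals marking the GC box GGGCGG or its reverse complement CCGCCC. They are Uchl1 at chr5:66675871-66676120, Cyld at chr8:88696778-88697027, Usp34 at chr11:23306645-23306894 and Usp47 at chr7:112023256-112023505.
Uchl1: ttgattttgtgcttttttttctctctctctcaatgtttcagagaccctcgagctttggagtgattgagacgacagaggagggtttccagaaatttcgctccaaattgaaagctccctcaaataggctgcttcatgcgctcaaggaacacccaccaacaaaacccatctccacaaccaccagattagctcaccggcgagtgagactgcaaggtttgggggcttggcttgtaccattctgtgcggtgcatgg
Cyld: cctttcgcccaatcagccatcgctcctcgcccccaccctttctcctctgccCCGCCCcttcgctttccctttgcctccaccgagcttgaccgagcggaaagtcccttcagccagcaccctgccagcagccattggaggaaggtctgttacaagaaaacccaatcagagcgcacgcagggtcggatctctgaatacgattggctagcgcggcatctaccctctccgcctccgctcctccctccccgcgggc
Usp34: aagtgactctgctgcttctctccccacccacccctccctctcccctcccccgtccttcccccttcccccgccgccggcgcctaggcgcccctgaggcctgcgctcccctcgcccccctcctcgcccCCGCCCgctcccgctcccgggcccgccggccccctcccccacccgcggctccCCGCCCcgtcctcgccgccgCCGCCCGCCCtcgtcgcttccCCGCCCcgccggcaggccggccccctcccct
Usp47: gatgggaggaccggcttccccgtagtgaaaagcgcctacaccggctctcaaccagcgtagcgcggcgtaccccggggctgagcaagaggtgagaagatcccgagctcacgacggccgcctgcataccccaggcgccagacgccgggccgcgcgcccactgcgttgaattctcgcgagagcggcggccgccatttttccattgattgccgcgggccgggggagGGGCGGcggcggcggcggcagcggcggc
The Uchl1 window held 48.8% G and C and no GC box. The windows of Cyld, Usp34 and Usp47 held 62.8%, 82.0% and 71.2% G and C and 1, 5 and 1 GC boxes. Among the 47 members with a promoter in RefSeq, G and C content ran from 42.0% to 85.2% with a median of 65.6%, and 34 (72.3%) held a GC box, against 65.2% of measured protein-coding genes and 35.4% of all genes with a promoter. Letters of 4 factors that the study names were searched on both strands of the same windows of 250 bases. TTCCCGC (E2F) was in 10.6% of members and 8.24% of measured protein-coding genes, AAGATGGC (YY1) in 4.26% and 2.39%, TGTGGT (RUNX) in 8.51% and 12.7%, and CTAAAAATA (MEF2) in 0.0% and 0.316%. Of the 12 members that fell after crush 9 had a promoter, and TTCCCGC was in 2 of them, Usp19 and Usp6nl, and AAGATGGC in Usp6nl.

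Deubiquitinases were ordinary genes of the table in level, with one exception. The median of member means was 4.20 on the deposited log2 scale against 4.37 for all genes, and 26 of 58 members were above the median of all genes. Uchl1 (ENSMUSG00000029223, chromosome 5, 66676091 to 66687234 in GRCm38) averaged 11.67 over the 19 libraries and ranked 12th of 12629 genes. Otub1, an OTU protease that also blocks E2 enzymes without cutting, followed at 8.00. Usp50 at 7.74, the proteasome-bound Usp14 at 7.69 and Usp5, which cuts free ubiquitin chains, at 7.24 completed the top 5. Usp28 (2.70), Usp42 (2.55), Usp37 (2.55), Usp36 (2.45), a nucleolar protease, and Otud4 (2.38) were the lowest. SDs within groups were 0.05 to 0.24 for Uchl1, Otub1, Usp50, Usp14 and Usp5, and Uchl1 stands clear of Otub1 in every library. The order below Uchl1 depends on the group. In α9k1-crush Usp14 (8.24 on average) was above Otub1 (8.02) and Usp5 (7.92) above Usp50 (7.25), without overlap between the libraries of each pair, while in GFP-naive Otub1 (8.00) and Usp50 (7.99) overlapped and lay above Usp14 (7.5).

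**Figure D1:**
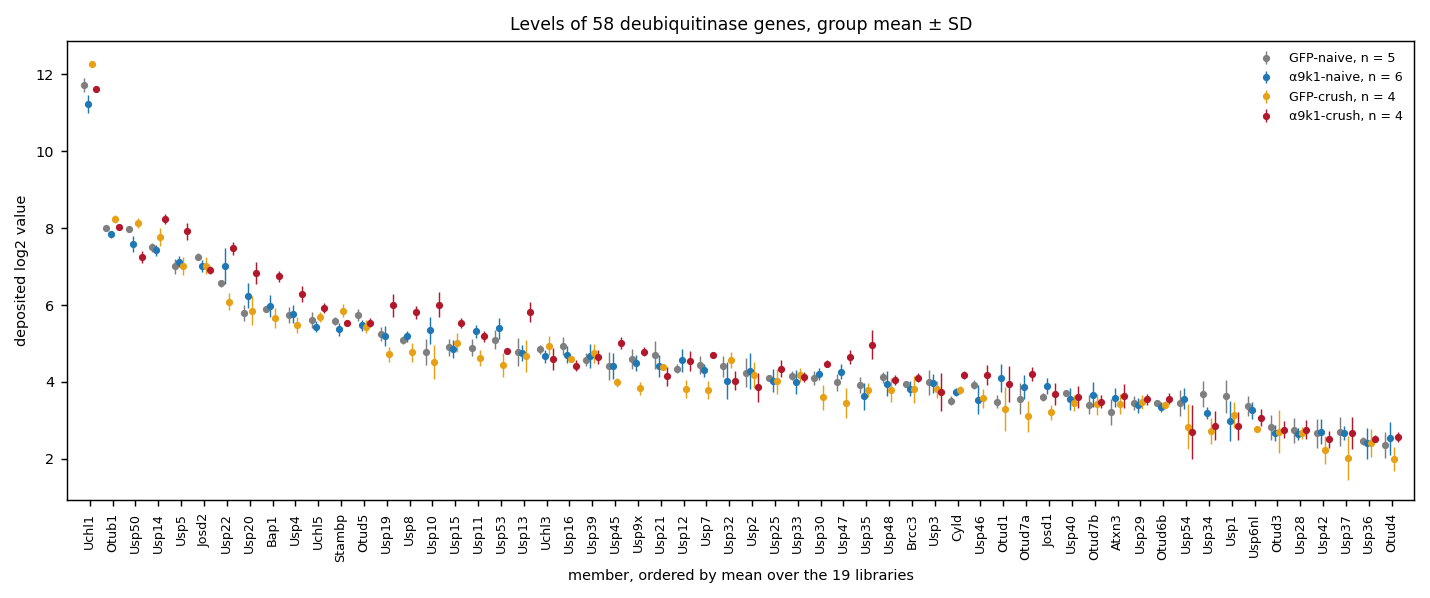
Deposited log2 value (y axis) of the 58 members, ordered by their mean over the 19 libraries (x axis). Points are group means and bars are SDs for the 5 and 6 naive libraries with GFP and α9k1 and the 4 crush libraries of each. Uchl1 averages 11.67 and Otub1, the next, 8.00, and the red α9k1-crush points lie above the other 3 groups for many members such as Usp5, Usp22 and Usp19.

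With the metric components, crush with GFP was the comparison in which the most members were called, and they changed in both directions. Without them more members were called in α9k1-crush versus GFP-crush (28 higher and 6 lower) and in α9k1-crush versus α9k1-naive (24 and 4) than here (5 and 15). Of 58 members 5 rose, 8.62% of them, where 7.39% of all genes rose, and 12 fell, 20.7%, where 15.7% of all genes fell. The median log2FC was -0.15 over members and -0.08 over all genes. The members that rose were Uchl1, Stambp, Usp14, Cyld and Otub1, with log2FC of 0.28 to 0.47. Those that fell, by 0.44 to 1.10 on the log2 scale, were Usp34, Usp9x, Usp7, Usp42, Usp19, Usp48, Usp53, Usp12, Usp16, Usp47, Usp6nl and Usp30. In sorted bulk cells, fewer cells of a type and less RNA per cell cannot be told apart.

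Uchl1, which keeps free ubiquitin in neurons, had the smallest adjusted p of those that rose. Its values were 11.78, 11.59, 11.87, 11.50 and 11.89 in GFP-naive and 12.28, 12.22, 12.30 and 12.34 in GFP-crush. Every GFP-crush library was above every GFP-naive library, and indeed above all 15 other libraries. The log2FC was 0.47 (SE 0.10, adjusted p = 0.00948), and a 2-sided exact permutation test of the deposited values gave p = 0.00794, the smallest this design allows and the value of any gene whose groups do not overlap. Otub1 (chromosome 19, 7198202 to 7206316) was at 8.09, 7.96, 8.00, 7.93 and 8.02 against 8.39, 8.23, 8.17 and 8.19, again without overlap, with a log2FC of 0.28 (SE 0.09, adjusted p = 0.0534). It was also above all 15 other libraries, which held for 3.02% of all genes. The proteasome-bound Usp14, which trims chains from substrates before they are degraded, was at 7.64, 7.56, 7.32, 7.48 and 7.5 in GFP-naive and 7.84, 8.07, 7.51 and 7.67 in GFP-crush. Here the lowest crush library lay within the naive range, at a log2FC of 0.34 (SE 0.11, adjusted p = 0.0516).

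Stambp, the metalloprotease that acts with the ESCRT machinery on endosomes, was at 5.57, 5.70, 5.60, 5.41 and 5.64 in GFP-naive and 6.02, 5.94, 5.64 and 5.82 in GFP-crush, a log2FC of 0.36 (SE 0.12, adjusted p = 0.0641) with 1 GFP-crush library inside the naive range. Cyld, which takes chains off NF-κB signalling proteins, was at 3.6, 3.49, 3.47, 3.35 and 3.67 against 3.91, 3.77, 3.81 and 3.66, a log2FC of 0.32 (SE 0.10, adjusted p = 0.0542). Only its lowest GFP-crush library overlapped the naive ones, lying between the 2 highest of them. Of the 5 increases, those of Cyld, Stambp and Usp14 held in all 3 other scalings of the libraries, and that of Uchl1 held in all 19 fits that left out 1 library. With quantile normalization Uchl1 and Otub1 were not called, and in the fit of these 2 groups alone none of the 5 was. Without GFP-crush replicate 1 only Uchl1 was called higher. Without GFP-crush replicate 2 these were Uchl1 and Cyld, without GFP-naive replicate 2 they were Uchl1 and Stambp, and without GFP-naive replicate 4 they were Uchl1, Otub1 and Usp14.

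The largest decrease was that of Usp34, a very large USP known as a regulator of Wnt signalling (chromosome 11, 23306895 to 23490560), whose promoter is printed above. It was at 3.29, 3.98, 3.40, 4.08 and 3.67 in GFP-naive and at 2.52, 2.66, 3.21 and 2.48 in GFP-crush, and the groups did not overlap. The log2FC was -1.10 (SE 0.25, adjusted p = 0.0106). Its relative Usp9x, an X-linked protease with many substrates in the developing brain (chromosome X, 13071498 to 13173328), was at 4.72, 4.51, 4.22, 4.95 and 4.57 against 3.83, 4.01, 3.59 and 3.88, a log2FC of -0.74 (SE 0.16, adjusted p = 0.00789). All 4 GFP-crush libraries lay below the 15 others for Usp9x, as they did for Usp12 and Josd1, 3 of 58 members where 3.29% of all genes had this pattern.

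Usp7, the protease of MDM2 and p53 (chromosome 16, 8689595 to 8792308), was at 4.57, 4.77, 4.29, 4.33 and 4.23 in GFP-naive and at 3.73, 4.11, 3.72 and 3.59 in GFP-crush. The log2FC was -0.63 (SE 0.15, adjusted p = 0.0156), with no overlap. Usp47, its closest relative, was at 4.12, 4.26, 3.97, 3.66 and 3.96 against 2.87, 3.64, 3.57 and 3.74, with 1 crush library inside the naive range and a log2FC of -0.49 (SE 0.18, adjusted p = 0.0824). Usp19, which is anchored in the endoplasmic reticulum (chromosome 9, 108490602 to 108502337), was at 5.18, 5.55, 5.26, 5.11 and 5.14 against 4.55, 4.92, 4.85 and 4.55, a log2FC of -0.55 (SE 0.15, adjusted p = 0.0267). Its groups did not overlap.

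Usp30, which sits on the outer mitochondrial membrane and opposes mitophagy, was at 4.11, 4.37, 3.89, 4.02 and 4.10 against 3.76, 3.96, 3.45 and 3.21, a log2FC of -0.44 (SE 0.16, adjusted p = 0.0712). The highest crush library lay above the lowest naive one. Usp16, a histone deubiquitinase, fell by 0.50 in the fit (SE 0.15, adjusted p = 0.0355). Its deposited values averaged 4.94 ± 0.24 (SD, n = 5) in GFP-naive and 4.59 ± 0.08 (n = 4) in GFP-crush, without overlap. The other members that fell were Usp12 (log2FC -0.51, adjusted p = 0.0937), which works with Wdr48, Usp42 (-0.58, adjusted p = 0.0658), a p53 protease, Usp48 (-0.53, adjusted p = 0.0740), Usp53 (-0.52, adjusted p = 0.0662), often listed as inactive, and Usp6nl (-0.47, adjusted p = 0.0682), the Rab regulator. Groups did not overlap for 8 of the 12 members that fell, and for 10 members in all, 17.2% of them, GFP-crush lay below GFP-naive, where this was so for 12.2% of all genes. Without overlap 2 members (3.45%), Uchl1 and Otub1, lay above, where 7.59% of all genes did.

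**Figure D2:**
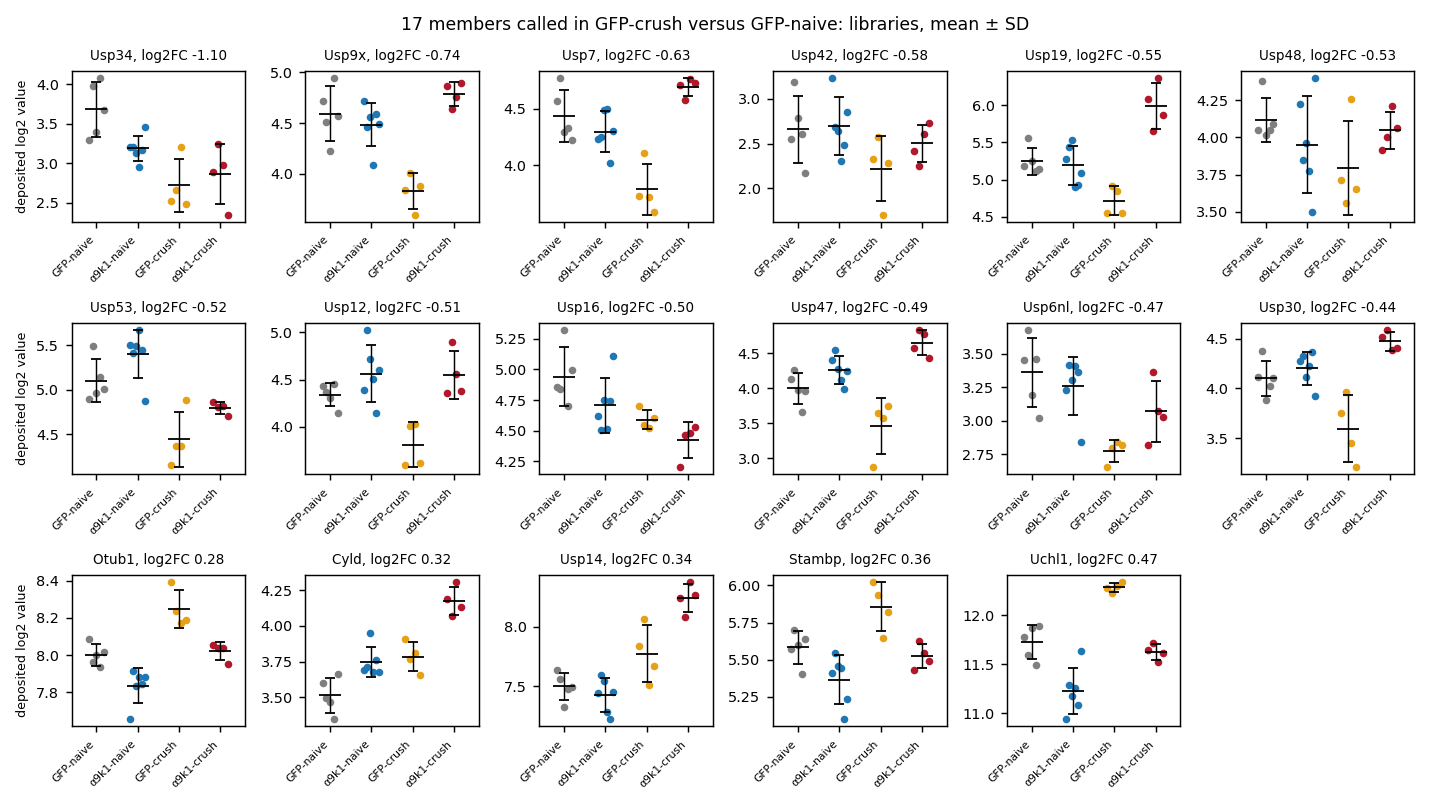
Deposited log2 values (y axis, its own range in each panel) of the 17 members called in GFP-crush versus GFP-naive, in the 4 groups (x axis). Points are libraries, the wide mark is the mean and bars are SDs, and panels run from Usp34 at a log2FC of -1.10 to Uchl1 at 0.47. For Usp9x, Usp7, Usp19, Usp30 and Usp47 the yellow GFP-crush points are low and the red α9k1-crush points are not. This does not hold for every member that fell, as Usp34 is low in α9k1-crush as well.

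How many members fell depended on the scaling of the libraries. With libraries centred on their medians the all-gene median went from -0.08 to 0.06, and 4 members were called lower and 5 higher, where 9.34% and 14.5% of all genes were. Relative to that shift, Usp34, Usp9x, Usp7 and Usp19 still fell. With quantile normalization 5 fell and 3 rose, where 10.9% and 9.55% of all genes did. With the trend of GC content and length removed 3 fell and 7 rose, where 9.85% and 9.86% of all genes did. Usp34, Usp9x and Usp7 were called lower in all 3 scalings and in all 19 fits without 1 library. In a fit of only the 9 libraries of these 2 groups, 3 members fell (Usp34, Usp7 and Usp19) and none rose in limma, where 5.24% and 2.07% of all genes did, and 13 members (22.4%) had an unadjusted p under 0.05, as 23.7% of all genes did. Without GFP-naive replicate 2 the number that fell dropped to 4, and without GFP-crush replicate 1 or GFP-crush replicate 2 it was 7 each time. Calls lower dropped over all genes as well, from 1984 of 12629 to 1057, 1418 and 1382 in the same order. Without the metric components 5 rose, the same 5, and 15 fell, of which 10 were shared with the 12, where 11% and 20.1% of all genes rose and fell.

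In this comparison long members tended to be those lower after crush, as long genes were in the whole table. Members had a median exon length of 6.54 kb, against 3.77 kb for the 12610 annotated genes. Over the 58 members Spearman's rho between exon length and the log2FC of GFP-crush versus GFP-naive was -0.235, and over all annotated genes it was -0.197. These points share the same libraries. Of the 29 longer members 9 fell and 3 rose, and of the 29 shorter members 3 fell and 2 rose, where 15.7% of all genes fell and 7.39% rose. With the length and GC trend removed the medians of the longer and shorter members were -0.03 and -0.05.

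Without crush, few deubiquitinases differed between α9k1 and GFP cells. Of 58 members 3 (5.17%) fell and none rose, where 17.6% of all genes fell and 11.4% rose, and 9 members (15.5%) had an unadjusted p under 0.05, as 34.9% of all genes did. The median log2FC was -0.10 over members and -0.08 over all genes. Usp46, which acts with Wdr48 and is known for its action on glutamate receptors (chromosome 5, 73998453 to 74068431), was at 3.78, 3.92, 3.85, 3.98 and 4.10 in GFP-naive and at 2.95 to 3.86 with a median of 3.74 in α9k1-naive. The log2FC was -0.71 (SE 0.20, adjusted p = 0.0232), and the groups overlapped. Otud5, a regulator of interferon production (chromosome X, 7841364 to 7876626), was at 5.93, 5.55, 5.64, 5.86 and 5.76 against 5.25 to 5.66 with a median of 5.47, a log2FC of -0.38 (SE 0.11, adjusted p = 0.0264). Stambp was at 5.10 to 5.54 with a median of 5.42 in α9k1-naive, a log2FC of -0.33 (SE 0.12, adjusted p = 0.0628).

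Without α9k1-naive replicate 6 none of these 3 was called, and Usp14 and Usp35 were called lower and Otud1 and Usp2 higher in their place. Stambp was also not called without GFP-crush replicate 3 or GFP-naive replicate 2, nor Otud5 without GFP-naive replicate 4. Usp46 and Otud5 were called in all 3 other scalings, and Stambp in 1 of them. Otud1, not called in the fit reported above, was called higher in all 3 of these scalings. It was called higher in every other alternative too, apart from the fit of these 2 groups alone and most fits without 1 library. In the fit without the metric components, 8 members were higher (Atxn3, Cyld, Josd1, Otud1, Usp10, Usp11, Usp20 and Usp22) and 9 were lower, among them the same 3, and in all genes 16.5% were higher and 29.5% lower. Groups did not overlap for Usp11, Cyld and Josd1, higher in α9k1-naive (5.17% of members and 8.43% of all genes), and for Otub1, lower (1.72% and 13.2%). Otub1 was below all 13 other libraries in α9k1-naive, at 7.66 to 7.92 with a median of 7.86, which held for 3.96% of all genes.

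After crush, α9k1 and GFP libraries differed widely in deposited values of members, and most differences were upward. The 4 α9k1-crush libraries lay above the 4 GFP-crush libraries for 23 members (39.7%), where this was so for 20% of all genes, and below for 5 members (8.62%), where it was so for 20.8%. With the metric components no member was called in either direction in this comparison, where 0.728% and 0.182% of all genes were called higher and lower, and 2 members (3.45%) had an unadjusted p under 0.05, as 9.11% of all genes did. The median log2FC was then 0.18 over members and 0.01 over all genes, with 40 of 58 members above 0. Without the components 28 members (48.3%) were called higher and 6 (10.3%) lower, where 29.6% and 28.3% of all genes were, with medians of 0.30 and 0.03.

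Length moved with these values as well. Without the components Spearman's rho between exon length and log2FC was 0.41 over all annotated genes and 0.181 over members. With the trend of GC content and length removed and no components, an alternative chosen after the values were seen, 21 members were higher and 8 lower, where 24.5% and 26.1% of all genes were, and the medians were 0.10 over members and -0.0029 over all genes. With the first 2 components 7 were higher and 2 lower, where 5.22% and 4.63% of all genes were. The larger depth of α9k1-crush libraries, a median of 70.2 M read pairs against 46.5 M in GFP-crush, and sums of neuron markers that overlap between the groups but reach higher in α9k1-crush, stood beside these differences. Other measures separated the groups without overlap. Intronic bases made up 2.11% to 2.93% of aligned bases in GFP-crush and 1.35% to 1.62% in α9k1-crush, intergenic bases 4.88% to 5.98% and 3.18% to 3.64%, and ribosomal bases 0.0723% to 0.132% and 0.0169% to 0.029%. The immediate early and dissociation genes summed to 1730 to 2330 and 4060 to 6290. The part of these measures in the differences was not tested.

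Usp10, which binds the stress granule proteins G3BP1 and G3BP2 and acts on p53 and endosomes (chromosome 8, 119910360 to 119957560), showed the largest difference without components. It was at 4.77, 4.97, 4.27 and 4.02 in GFP-crush and at 5.74, 5.73, 6.25 and 6.32 in α9k1-crush, with every α9k1-crush library above every GFP-crush one. The log2FC was 1.5 (adjusted p = 8.02e-05) without and 0.53 (SE 0.43, adjusted p = 0.760) with the components. Usp22, the deubiquitinase of the SAGA coactivator, which acts on histones (chromosome 11, 61151785 to 61175055), was at 6.24, 6.28, 5.81 and 5.99 against 7.38, 7.33, 7.72 and 7.46. Its log2FC was 1.39 (adjusted p = 3.62e-05) without and 0.36 (SE 0.36, adjusted p = 0.831) with them. For Usp4, a nuclear and cytoplasmic relative of Usp11 and Usp15, values were 5.42, 5.78, 5.36 and 5.37 against 6.32, 6.01, 6.51 and 6.30, and the log2FC turned from 0.80 (adjusted p = 0.000326) to -0.01 (SE 0.26, adjusted p = 0.995).

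Usp19 was at 6.08, 5.65, 6.37 and 5.87 in α9k1-crush, against 4.55 to 4.92 in GFP-crush, a log2FC of 1.27 (adjusted p = 1.34e-05) without and 0.48 (SE 0.33, adjusted p = 0.715) with the components. Usp47 was at 4.57, 4.83, 4.77 and 4.43 and Usp7 at 4.71, 4.58, 4.76 and 4.73, both above their GFP-crush values without overlap. In deposited values Usp19 and Usp7 lay lower after crush with GFP and higher after crush with α9k1, without overlap in either, 2 of 58 members (3.45%), where 0.602% of all genes did so. Of the 5 members listed for mitochondria, Usp8, Usp15, Usp30 and Usp35 lay above GFP-crush without overlap, while Usp36 overlapped, with a log2FC of -0.39 with components, as that of Usp15 was negative at -0.33. Of all members 39.7% lay above in this way, and of all genes 20%. Usp35, reported at mitochondria and lipid droplets (chromosome 7, 97309380 to 97332020), was at 3.84, 3.97, 3.53 and 3.80 in GFP-crush and at 5.13, 4.56, 5.40 and 4.75 in α9k1-crush, and Usp30 at 4.52, 4.59, 4.38 and 4.41 in α9k1-crush. The log2FC with components were 0.83 (SE 0.54, adjusted p = 0.687) for Usp35 and 0.31 (SE 0.34, adjusted p = 0.851) for Usp30.

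Of the 7 endosomal members 6 had a log2FC above 0 with the components and none was called, and without them 5 were called higher and 1 lower, where 29.6% and 28.3% of all genes were. Usp8, which deubiquitinates endocytosed receptors, was at 4.73, 5.13, 4.67 and 4.54 in GFP-crush and at 5.88, 5.61, 6.01 and 5.77 in α9k1-crush. It was one of the 2 members with an unadjusted p under 0.05 in limma with the components, at a log2FC of 0.53 (SE 0.24, adjusted p = 0.536). The other was Stambp, which acts at the same sorting step and was lower, at 5.43, 5.62, 5.54 and 5.49 in α9k1-crush against 5.64 to 6.02 in GFP-crush, a log2FC of -0.68 (SE 0.27, adjusted p = 0.442).

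Of the 5 members below without overlap, Uchl1 was at 11.65, 11.72, 11.52 and 11.62 in α9k1-crush, within the GFP-naive range and below GFP-crush by 0.66 on the log2 scale without components (adjusted p = 0.000356). With components its log2FC was -0.30 (SE 0.23, adjusted p = 0.743). Otub1 was at 8.05, 8.04, 8.04 and 7.95, Usp50 at 7.11, 7.44, 7.15 and 7.32 against 8.24, 7.98, 8.26 and 8.05, and Stambp and Usp32 completed the group. Usp50 lacks parts of a working active site, and its exons share 6.57% of their bases with a processed pseudogene.

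**Figure D3:**
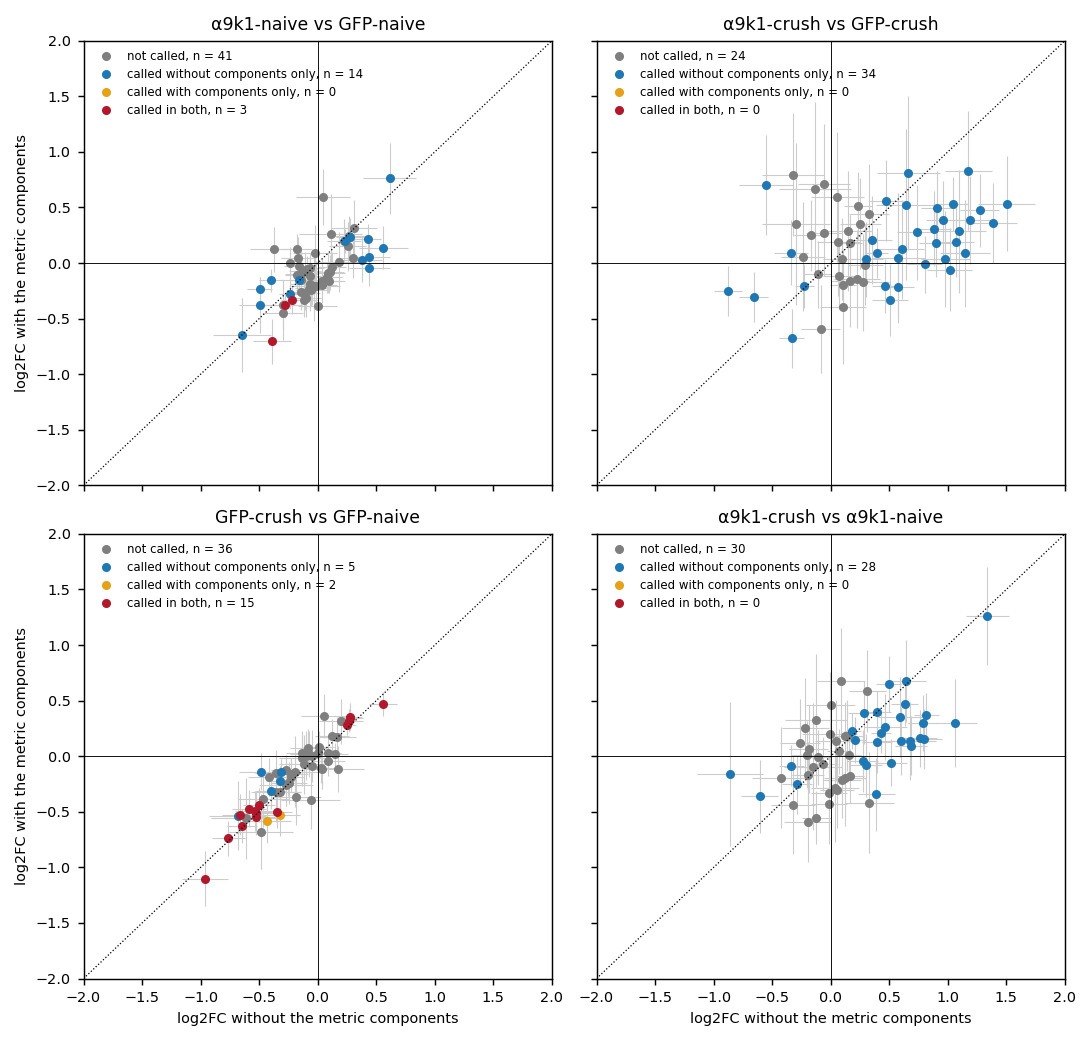
Log2 fold change of the 58 members without (x axis) and with (y axis) the 3 metric components, in the 4 comparisons. Each point is a member with its standard errors as grey bars, colours give the calls at an adjusted p under 0.1, and the dotted line marks equal values. In α9k1-crush versus GFP-crush 34 members are called without the components only and none with them, whereas in GFP-crush versus GFP-naive 15 are called in both fits.

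Crush with α9k1 was accompanied by no called change of a member with the components, where 4.47% and 5.27% of all genes were called higher and lower, and by 5 members (8.62%) with an unadjusted p under 0.05, where 21.5% of all genes had one. The median log2FC was 0.10 over members and 0.00 over all genes. Usp35 came nearest. It was at 3.2 to 4.13 with a median of 3.64 in α9k1-naive and at 4.56 or above in α9k1-crush, without overlap, with a log2FC of 1.26 (SE 0.44, adjusted p = 0.114). It was called in 3 of the 19 fits that left out 1 library, those without α9k1-crush replicate 2, α9k1-naive replicate 3 or α9k1-naive replicate 6. Uchl5, the second deubiquitinase of the proteasome, was at 5.23 to 5.61 with a median of 5.44 in α9k1-naive and at 6.09, 5.82, 5.92 and 5.86 in α9k1-crush. Its log2FC was 0.65 (SE 0.25, adjusted p = 0.15), and without GFP-crush replicate 2 it was called, as was Usp8.

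Without the components 24 members (41.4%) were called higher in α9k1-crush than in α9k1-naive and 4 (6.90%) lower, where 28.5% and 27.1% of all genes were, and 14 members (24.1%) lay above without overlap and 1 (1.72%), Usp53, below, where 17.4% and 16.1% of all genes did. For Usp14 the values were 7.22 to 7.59 with a median of 7.45 in α9k1-naive and 8.24, 8.08, 8.38 and 8.26 in α9k1-crush, a log2FC of 0.82 (adjusted p = 8.35e-06) without and 0.37 (SE 0.20, adjusted p = 0.294) with components. Usp5 was at 7.01 to 7.37 with a median of 7.07 against 8.04, 7.64, 8.12 and 7.86, and its relative Usp13 at 4.47 to 4.95 with a median of 4.82 against 5.90, 5.58, 6.14 and 5.66. The log2FC with components was 0.30 for each (SE 0.25, adjusted p = 0.538 for Usp5, and SE 0.40, adjusted p = 0.729 for Usp13). Otub1 was the only member whose groups did not overlap in any of the 4 comparisons.

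In 10 members the 4 α9k1-crush libraries lay above all 15 other libraries, 17.2% of members, where 6.25% of all genes had this pattern, and in no member did they lie below them, where 5.78% of all genes did. No member stood beyond all other libraries in GFP-naive, where 1.52% of all genes were above and 0.871% below, or above them in α9k1-naive, where 4.28% were. The 10 members were Usp14, Usp5, Usp13, Usp19, Usp8, Usp15, Usp30, Usp35, Bap1 and Cyld. With the components none of them was called in α9k1-crush versus GFP-crush, and the log2FC of Usp14 (-0.21) and Usp15 (-0.33) were negative there. That of Usp30 in α9k1-crush versus α9k1-naive was negative as well (-0.05). Bap1, a nuclear hydrolase that opposes Polycomb silencing, was at 5.93, 5.86, 5.95, 5.79 and 5.99 in GFP-naive, 5.67 to 6.43 with a median of 5.95 in α9k1-naive, 5.74, 5.95, 5.68 and 5.32 in GFP-crush, and 6.69, 6.61, 6.95 and 6.73 in α9k1-crush. Usp15, a regulator of TGF-β signalling, was at 4.53 to 5.22 in the other 3 groups and at 5.43, 5.41, 5.67 and 5.61 in α9k1-crush. Cyld had means of 3.51 ± 0.12 (SD, n = 5) without and 3.78 ± 0.10 (n = 4) with crush under GFP, and of 3.74 ± 0.10 (n = 6) without and 4.17 ± 0.10 (n = 4) with crush under α9k1, and of the 4 comparisons only that of crush with GFP passed the test with components.

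**Figure D4:**
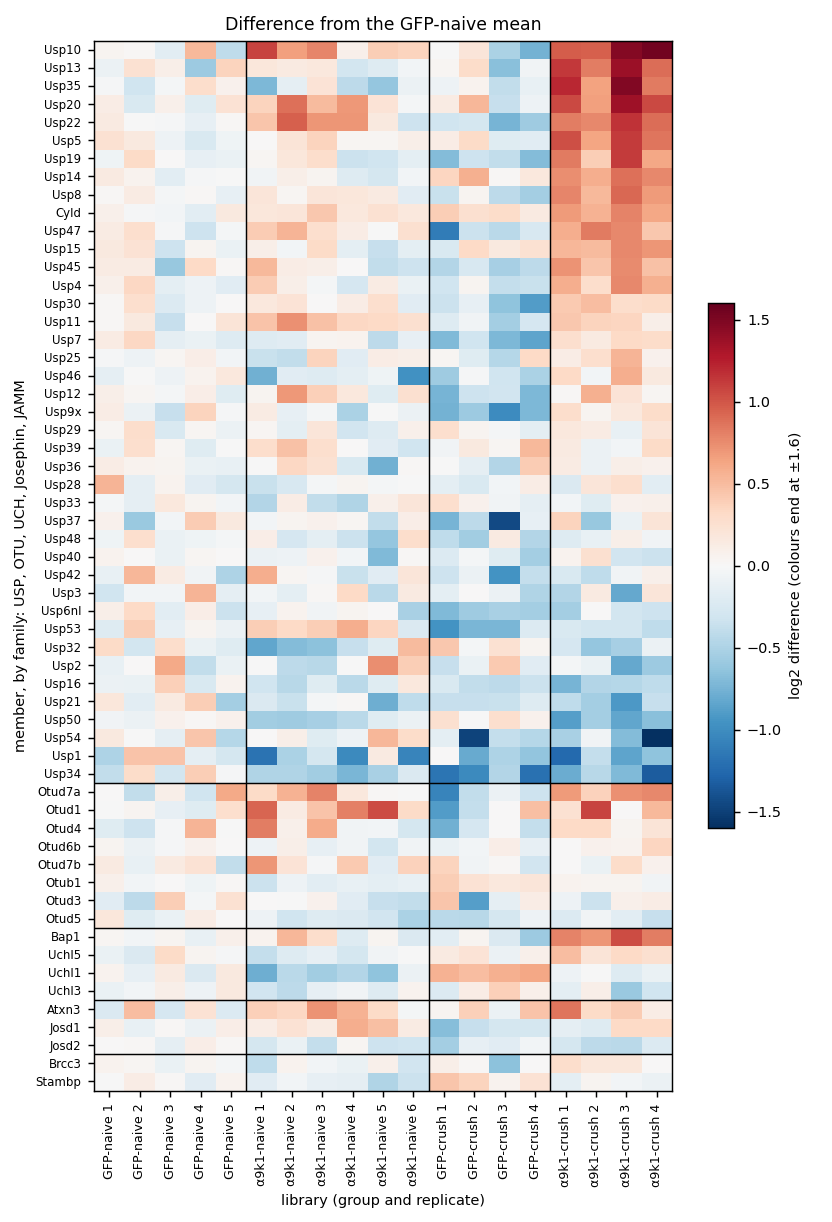
Difference of each library (x axis) from the mean of the GFP-naive libraries for the 58 members (y axis, grouped by family and ordered within it by the difference of the α9k1-crush mean from the GFP-naive mean), on the log2 scale, with red higher and blue lower and colours ending at ±1.6. In α9k1-crush the USP block runs from red (Usp10, Usp13, Usp35) to blue (Usp34, Usp1, Usp54), and Usp34 is blue in GFP-crush as well.

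The interaction, that is the effect of α9k1 after crush minus that without crush, addressed whether the vectors acted differently after injury. No member was called, where 1.35% and 0.847% of all genes were called higher and lower, and 5 members (8.62%) had an unadjusted p under 0.05, all above 0, as 14.0% of all genes did in either direction. Their median was 0.23 over members and 0.07 over all genes. The smallest adjusted p was that of Usp8, with an interaction of 0.69 (SE 0.23, adjusted p = 0.182). Those of Usp35 (1.28, SE 0.51, adjusted p = 0.265), Usp7 (0.76, SE 0.32, adjusted p = 0.292), Usp19 (0.70, SE 0.31, adjusted p = 0.322) and Uchl5 (0.62, SE 0.29, adjusted p = 0.351) followed. Without components 22 members were higher and 1 lower, where 23.3% and 16.1% of all genes were.

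By role, the 5 members that work on the free ubiquitin pool (Uchl1, Uchl3, Usp5, Usp13 and Usp14) had a median log2FC of 0.08 after crush with GFP, with 2 called higher and none lower, against -0.08 over all genes. In this comparison 7.39% of all genes rose and 15.7% fell, which is the background for each count by role or family below. The 9 members on p53 and DNA repair had a median of -0.49, with 4 called lower (Usp7, Usp42, Usp47 and Usp48) and none higher. Of these 4 decreases, that of Usp7 alone held with median-centred libraries, with quantile normalization and with the trend of GC content and length removed, and those of the other 3 were lost in each. Of 7 endosomal members 1 rose (Stambp) and 2 fell (Usp9x and Usp12), of 12 on NF-κB and innate signalling 2 rose (Cyld and Otub1), and of 6 on histones 1 fell (Usp16). Of 6 in degradation from the endoplasmic reticulum 1 fell (Usp19), and of 5 on mitochondria 1 (Usp30). These lists overlap, were drawn up with earlier results of these data known, and their counts are a description. By family, all 12 decreases were among the 41 USP genes, as were 2 of the increases (Usp14 and Cyld). The OTU, UCH and JAMM families had 1 increase each, and no Josephin was called. Josd1 did lie below GFP-naive in GFP-crush without overlap, at 2.93, 3.24, 3.33 and 3.33 against 3.70, 3.49, 3.63, 3.52 and 3.71, with a log2FC of -0.31 (SE 0.17, adjusted p = 0.226).

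Close relatives did not always move together. Usp9x and Usp34 both fell after crush with GFP, and so did Usp7 and Usp47. Of Usp12 and Usp46, which share the cofactor Wdr48, Usp12 fell after crush with GFP, while Usp46, at a log2FC of -0.15 there, fell with α9k1 without crush, where Usp12 was at 0.20. Usp16 fell after crush with GFP and Usp45 was at -0.19, Usp42 fell and Usp36 was at 0.00, Usp53 fell and Usp54 was at -0.56 with a larger error (SE 0.36). Uchl1 rose and Uchl3 was at -0.04. Differences between relatives were not themselves tested.

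The members that define other roles and were not called lay as follows. Usp1, a protease of DNA repair, was at 3.12, 4.08, 4.08, 3.47 and 3.35 in GFP-naive, 2.44 to 3.76 with a median of 2.86 in α9k1-naive, 3.62, 2.82, 3.12 and 2.98 in GFP-crush and 2.38, 3.24, 2.78 and 2.98 in α9k1-crush, with overlap in each comparison. Brcc3, the metalloprotease of the BRCA1-A and BRISC complexes, had means of 3.94 ± 0.07 (SD, n = 5), 3.82 ± 0.20 (n = 6), 3.80 ± 0.35 (n = 4) and 4.10 ± 0.12 (n = 4) in the same order. Atxn3, the protein of Machado-Joseph disease, had means of 3.21 ± 0.35 (n = 5), 3.59 ± 0.25 (n = 6), 3.41 ± 0.26 (n = 4) and 3.64 ± 0.31 (n = 4). Neither was called in any comparison with components.

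Genes around the deubiquitinases were read from lists that hold no member. Among genes for ubiquitin and E1 enzymes, Uba6, an E1 enzyme (log2FC 0.65, SE 0.19, adjusted p = 0.0341), and Ubb, a polyubiquitin gene (0.25, SE 0.09, adjusted p = 0.0909), rose after crush with GFP. With α9k1, Nae1, a subunit of the E1 of NEDD8, rose by 0.71 (SE 0.20, adjusted p = 0.0542) after crush.

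As background for the counts that follow, 7.39% of all genes rose and 15.7% fell after crush with GFP, and 11.4% rose and 17.6% fell with α9k1 without crush. Of 19 other genes of deubiquitinase families and their relatives, which include proteins that are no proteases such as Pan2, of a deadenylase, and Cops6, 4 rose and 1 fell after crush with GFP. Mysm1, a histone deubiquitinase, fell by 0.54 (SE 0.16, adjusted p = 0.0380), and among those that rose were Stambpl1, the relative of Stambp (0.37, SE 0.15, adjusted p = 0.0989), and Cops6, a subunit of the COP9 signalosome without protease activity (0.36, SE 0.10, adjusted p = 0.0233). Without crush, 1 of them rose and 2 fell with α9k1, Zufsp (-0.66, SE 0.21, adjusted p = 0.0336) and Pan2 (-0.60, SE 0.18, adjusted p = 0.0262). The increase was that of Tnfaip3 (A20), the inhibitor of NF-κB signalling, with a log2FC of 3.06 (SE 0.20, adjusted p = 5.77e-08) and means of deposited values of 1.76 ± 0.56 (n = 5) in GFP-naive and 4.93 ± 0.19 (n = 6) in α9k1-naive. In α9k1-crush versus GFP-crush it was called as well, at 2.42 (SE 0.44, adjusted p = 0.0179). Of 23 cofactors, 2 rose and 2 fell with α9k1 without crush. Those that rose were Spata2, which links Cyld to its complex (0.72, SE 0.18, adjusted p = 0.00944), and G3bp2, the partner of Usp10 (0.58, SE 0.09, adjusted p = 0.00036). Of the cofactors, 1 rose and 2 fell after crush with GFP, with Foxk2, a partner of Bap1, at -0.46 (SE 0.14, adjusted p = 0.0367). After crush with α9k1, 1 cofactor rose, Babam1 (0.61, SE 0.17, adjusted p = 0.0488), and 1 fell, again Foxk2 (-0.86, SE 0.24, adjusted p = 0.0541). Of all genes 4.47% rose and 5.27% fell there. G3bp2 was also higher with α9k1 after crush (0.93, SE 0.20, adjusted p = 0.0440). Of 10 proteases of SUMO and UFM1, 1 rose and 2 fell after crush with GFP, with Senp6 at -0.84 (SE 0.14, adjusted p = 0.00199), Senp3 at -0.57 (SE 0.15, adjusted p = 0.0243) and Senp2 at 0.47 (SE 0.17, adjusted p = 0.0746). All are SUMO proteases. Senp3 was the only one of the 10 called after crush with α9k1, where it was higher (0.95, SE 0.28, adjusted p = 0.0584). It was also called in the interaction, at 1.51 (SE 0.32, adjusted p = 0.0377). The comparisons that involve the same group share its libraries, and no overlap between them is given.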

How the data were processed

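GFP-positive cells of dissociated DRGs were sorted and RNA-seq libraries made with SMART-Seq v4. Per the paper's methods, the authors used STAR for alignment to the mouse genome mm10 (GRCm38) and Salmon for counting, removed genes of low count and normalized for gene length and depth with cqn. The deposited expression table holds log2 values, not counts, and has no gene names, so rows were joined to the authors' gene table by order: 12 neuron markers averaged 8.56 at the stated order and 4.15 to 5.84 when shifted by 1 to 10 rows. The authors' sequencing metrics were deposited as counts of reads and bases, as a fraction, as a percent and as a ratio. Columns of the authors' own fold changes and p-values were not used.

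Groups were compared with limma 3.58.1 in R 4.3.3 on all 12629 genes, with 4 group means and the first 3 principal components of 48 scaled metrics (45.9%, 24.1% and 11.5% of their variance), in the 19 libraries, with Benjamini-Hochberg adjustment over all genes and a threshold of 0.1. Batch, a term in the study's model, is not in the sample table used here and was left out. A single value was tested with a 2-sided exact permutation test, and the fit was checked on simulated data. Spearman's rho was computed with scipy 1.17.1. Alternatives covered the components, scaling, filters, moderation, weights, a replicate block and leaving out each library.

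Members follow a rule on gene names, and this rule and the lists were chosen with earlier results of these data known. Genes were named where they were called in any comparison, were among the 5 highest or 5 lowest in level, were named in the text or the supplementary lists of the study (Usp4, Usp10 and Usp22), stood for a role list or did not overlap between groups in all 4 comparisons, with at most 3 called genes from each list of other pathway genes in each comparison. Other members named above were chosen after their values were seen, because their libraries did not overlap or their p was among the smallest. Promoters came from RefSeq (GRCm38.p6), which held 47 of 58 members. Some genes of the list for ubiquitin and E1 enzymes are not reported here, and no counts are given for that list.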

Additional observations from a re-analysis of the deposited data

Results flagged for a closer look

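In 11 of 232 groups of libraries, 1 library stood apart from the others of its group by Dixon's test. Chance gives about 1 in 20, so this count is near the one chance gives, and the values that follow are only a list. Usp40 was at 2.99 in α9k1-naive replicate 5, against 3.6 to 3.77 in the others, and Usp37 in the same library at 2.32, against 2.67 to 2.81. Otub1 was at 7.66 in α9k1-naive replicate 1 and at 7.95 in α9k1-crush replicate 4, each the lowest of its group. Cyld was at 3.95 in α9k1-naive replicate 3, above the others at 3.68 to 3.76. In α9k1-naive replicate 6, the library without which Usp46, Otud5 and Stambp were not called, Usp6nl was at 2.84 and Usp53 at 4.87, below the others at 3.23 to 3.42 and 5.42 to 5.67. In GFP-crush, Brcc3 was at 3.28 in replicate 3, Usp4 at 5.78 in replicate 2 and Usp21 at 4.50 in replicate 4. Usp48 was at 4.38 in GFP-naive replicate 2, against 4.01 to 4.09.

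For Usp19 and Usp7 the deposited values after crush lay lower with GFP and higher with α9k1, without overlap in either, as for 3.45% of members and 0.602% of all genes. Mean differences of deposited values were -0.53 with GFP and 0.80 with α9k1 for Usp19, 1.32 apart, and -0.65 and 0.40 for Usp7, 1.04 apart. With the metric components the log2FC of crush with α9k1 was 0.15 (SE 0.27, adjusted p = 0.812) for Usp19 and 0.13 (SE 0.28, adjusted p = 0.846) for Usp7 in limma, neither called. The interaction in limma had adjusted p of 0.322 and 0.292 with the metric components, and 0.000398 and 0.000543 without them. The markers of neurons and glia and the metric components differ between these groups as well, and their part was not tested.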

How the results depend on the processing

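The fit reported above for the 58 members called 0 higher and 3 lower in α9k1-naive versus GFP-naive, 5 and 12 in GFP-crush versus GFP-naive, and none in the others. In the rest of this paragraph the shares of all genes called higher and lower in the same fit stand in parentheses. Without the metric components there were 8 higher and 9 lower in α9k1-naive versus GFP-naive (16.5% and 29.5%), 28 higher and 6 lower in α9k1-crush versus GFP-crush (29.6% and 28.3%), 24 higher and 4 lower when α9k1-crush was set against α9k1-naive (28.5% and 27.1%), 22 higher and 1 lower in the interaction (23.3% and 16.1%). With the first component alone there were 8 higher and 9 lower in α9k1-naive versus GFP-naive, 25 higher and 5 lower in α9k1-crush versus GFP-crush, 22 higher and 3 lower when α9k1-crush was set against α9k1-naive, 19 higher and 1 lower in the interaction. With the first 2 components there were 1 higher and 3 lower in α9k1-naive versus GFP-naive (11.2% and 16.7%), 7 higher and 2 lower in α9k1-crush versus GFP-crush (5.22% and 4.63%), 24 higher and 5 lower when α9k1-crush was set against α9k1-naive (28.7% and 27.9%), 18 higher and 0 lower in the interaction (16.2% and 10.4%). With the GC and length trend removed and no components there were 11 higher and 6 lower in α9k1-naive versus GFP-naive (20.1% and 23.0%), 21 higher and 8 lower in α9k1-crush versus GFP-crush (24.5% and 26.1%), 7 higher and 7 lower in GFP-crush versus GFP-naive (13.3% and 13.1%), 20 higher and 8 lower when α9k1-crush was set against α9k1-naive (27.5% and 27.6%), 14 higher and 3 lower in the interaction (15.7% and 16.5%). With that trend removed and the components kept there were 3 higher and 2 lower in α9k1-naive versus GFP-naive (13.6% and 14.3%) and 7 higher and 3 lower in GFP-crush versus GFP-naive (9.86% and 9.85%). With the replicate number as a block there were 1 higher and 2 lower in α9k1-naive versus GFP-naive (8.96% and 10.4%) and 3 higher and 10 lower in GFP-crush versus GFP-naive (6.88% and 14.8%). With the replicate block and no components there were 9 higher and 8 lower in α9k1-naive versus GFP-naive, 28 higher and 6 lower in α9k1-crush versus GFP-crush, 3 higher and 19 lower in GFP-crush versus GFP-naive, 19 higher and 5 lower when α9k1-crush was set against α9k1-naive, 22 higher and 1 lower in the interaction. In fits of the 2 groups alone there were 0 higher and 3 lower in GFP-crush versus GFP-naive (2.07% and 5.24%) and 0 higher and 1 lower between α9k1-crush and α9k1-naive (0.507% and 1.09%). With quantile normalization there were 3 higher and 4 lower in α9k1-naive versus GFP-naive (12.8% and 15.5%) and 3 higher and 5 lower in GFP-crush versus GFP-naive (9.55% and 10.9%). With median-centred libraries there were 2 higher and 2 lower in α9k1-naive versus GFP-naive (13.1% and 13.7%) and 5 higher and 4 lower in GFP-crush versus GFP-naive (14.5% and 9.34%). With a filter on low values there were 2 higher and 3 lower in α9k1-naive versus GFP-naive (12.2% and 19.7%) and 1 higher and 0 lower between α9k1-crush and α9k1-naive (5.58% and 6.8%). With a pseudocount added on the linear scale there were 1 higher and 3 lower in α9k1-naive versus GFP-naive (11.7% and 17.9%). With trended and robust moderation there were 2 higher and 5 lower in α9k1-naive versus GFP-naive (11.7% and 17.8%) and 1 higher and 0 lower between α9k1-crush and α9k1-naive (5.12% and 5.63%). With library weights there were 1 higher and 4 lower in α9k1-naive versus GFP-naive (11.6% and 18.1%), 3 higher and 0 lower when α9k1-crush was set against α9k1-naive (7.63% and 8.57%), 1 higher and 0 lower in the interaction (2.8% and 1.55%). In GFP-crush versus GFP-naive the alternatives not named for it gave 4 or 5 higher and 9 to 15 lower, the 9 with the filter on low values, which removed Usp34, Usp42 and Usp6nl from the test. Over the same alternatives the shares of all genes called higher and lower ran from 8.96% to 20.1% and from 10.4% to 29.6% in α9k1-naive versus GFP-naive, from 0.0% to 29.6% and 0.0% to 28.3% in α9k1-crush versus GFP-crush, from 2.07% to 14.5% and 5.24% to 20.7% in GFP-crush versus GFP-naive, from 0.507% to 28.7% and 1.09% to 27.9% between α9k1-crush and α9k1-naive, and from 0.15% to 23.3% and 0.0554% to 16.5% in the interaction. With the first component alone they were 25% and 23.6% in α9k1-crush versus GFP-crush, and with the first 2 components 28.7% and 27.9% between α9k1-crush and α9k1-naive. Leaving out 1 library gave 1 to 5 higher and 4 to 13 lower in GFP-crush versus GFP-naive, 0 to 2 and 2 to 5 in α9k1-naive versus GFP-naive, 0 to 2 and 0 to 0 when α9k1-crush was set against α9k1-naive, and 0 to 0 in the others.

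For these members the sign of the log2FC turned with a call in one of the fits, with the value under the alternative in parentheses. Without the metric components, the sign turned in α9k1-naive versus GFP-naive for Usp22 (0.44), in α9k1-crush versus GFP-crush for Usp32 (-0.55), Usp15 (0.51), Uchl3 (-0.34), Usp11 (0.57), Usp4 (0.80), Usp45 (1.02) and Usp14 (0.47), between α9k1-crush and α9k1-naive for Usp30 (0.27), Usp9x (0.30), Usp4 (0.51) and Usp47 (0.39), in the interaction for Usp15 (0.56) and Otud7a (0.79). With the first component alone, the sign turned in α9k1-naive versus GFP-naive for Usp22 (0.44), in α9k1-crush versus GFP-crush for Usp15 (0.54), Uchl3 (-0.41), Usp11 (0.51), Usp4 (0.95), Usp45 (0.99), Usp14 (0.48) and Usp42 (0.64), between α9k1-crush and α9k1-naive for Usp9x (0.33), Usp4 (0.56) and Usp47 (0.36), in the interaction for Usp15 (0.60). With the first 2 components, the sign turned between α9k1-crush and α9k1-naive for Usp30 (0.29), Usp9x (0.33), Usp4 (0.56) and Usp47 (0.36). With the GC and length trend removed and no components, the sign turned in α9k1-naive versus GFP-naive for Usp22 (0.44), in α9k1-crush versus GFP-crush for Usp32 (-0.85), Uchl3 (-0.40), Usp33 (-0.36), Usp16 (-0.47), Usp11 (0.37), Usp4 (0.45), Usp45 (0.76) and Usp21 (-0.46), in GFP-crush versus GFP-naive for Usp29 (0.32), between α9k1-crush and α9k1-naive for Usp4 (0.38) and Usp21 (-0.38), in the interaction for Otud7b (-0.57). With the replicate block and no components, the sign turned in α9k1-naive versus GFP-naive for Usp32 (-0.55) and Usp22 (0.60), in α9k1-crush versus GFP-crush for Usp32 (-0.55), Usp15 (0.51), Uchl3 (-0.34), Usp11 (0.57), Usp4 (0.80), Usp6nl (0.30), Usp45 (1.02) and Usp14 (0.47), between α9k1-crush and α9k1-naive for Usp30 (0.23), Usp4 (0.47) and Usp21 (-0.42), in the interaction for Usp15 (0.54) and Otud7a (0.73). The cause of these changes was not tested. In all, 803 values not called in either fit changed sign.

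The fits with the first 2 components, and with the GC and length trend removed without components, were chosen after seeing the data. Replicate numbers did not pair the libraries, since correlations of same-numbered deviations ran from -0.269 to 0.133 over 17 pairs, with 2 above 0.1 and 4 in which the best partner had the same number. With the block and the components kept, Usp46, Otud5 and Stambp were not called in α9k1-naive versus GFP-naive, where Usp14 and Usp35 were lower and Otud1 higher, and in GFP-crush versus GFP-naive Otub1, Stambp, Usp16, Usp42 and Usp48 were not called and Usp21 was lower. Read counts per gene were not used, so that counting error is unknown, and 4 libraries against 4 limit an exact permutation test to p = 0.0286.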
